A study of Mus musculus with 6 samples.

Results

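Mature beta cells are recognised by the hormones they store and by the proteins with which they read blood glucose. The genes described here are 9 of these in the mouse: the hormone genes Ins2, Iapp and Ucn3, the glucose transporter gene Slc2a2, the glucose-6-phosphatase gene G6pc2, the granule zinc transporter gene Slc30a8, the channel subunit genes Abcc8 and Kcnj11, and the incretin receptor gene Glp1r. They were taken by name, with every probe annotated to one of them, which gave 16 of the 45281 probes on the array and 9 of its 21946 named genes. Of the 16 probes, 15 passed the filter on dim probes and were tested. The probe left out was a dim Slc2a2 probe that was detected on 0 of 6 arrays. Where a gene had several probes, the one with the highest mean gave its value. Ins1, the other mouse insulin gene, had no named probe in the probe table used.

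The tissue was pancreatic islets of BALB/c mice aged 5 weeks. One set of mice had received B29, a monoclonal antibody against the protease inhibitor serpin B13, and the other a control IgG antibody, each as 4 intraperitoneal injections of 25 µg begun at 2 weeks of age, with islets taken 2 weeks after the last. Islets were sorted by diameter into classes of under 100, 100 to 200 and over 200 µm. Each class of each antibody was run on 1 Illumina bead array, 6 arrays in all. The labels do not give the number of mice behind an array. Nor do they say whether the 3 classes of an antibody came from the same mice. The p-values therefore measure agreement between arrays: of the antibody difference between classes, and of the diameter differences between antibodies. The number of arrays limits the precision. Between 14800 and 15914 probes were detected per array (32.7% to 35.2%). Ins2 had the brightest probe of the array on 5 of 6 arrays, and exocrine RNA was also present: the median log2 level of 21 acinar cell genes was 13.07, 11.41 and 6.76 on the B29 arrays and 12.76, 10.87 and 10.24 on the IgG arrays, in order of rising diameter.

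In a beta cell, glucose enters through the transporter encoded by Slc2a2 and is trapped by phosphorylation, a step that the phosphatase encoded by G6pc2 opposes. Its metabolism raises ATP, which closes the potassium channel built from the Kcnj11 pore and the Abcc8 sulphonylurea receptor, and the resulting calcium entry releases insulin granules loaded with zinc by the Slc30a8 product. Islet amyloid polypeptide, from Iapp, leaves the cell with insulin, urocortin 3, from Ucn3, acts on neighbouring delta cells, and the Glp1r product lets gut incretin hormone amplify the response.

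Promoter sequence was at hand for 5 of the 9 genes, from RefSeq on build GRCm38.p6. The windows shown are the 250 bases before the annotated start, 5′ to 3′ on the gene's strand, of Iapp, Ucn3 and Slc2a2. The level of Iapp moved most, and that of Ucn3 was lower with B29 in every class in the authors' values. On the brightest probe, Slc2a2 had the smallest span (0.28) among the members below the top of the scale that were detected on every array. Its other detected probes spanned 0.59 and 0.64. Capitals mark TAAT, the core read by homeodomain factors of beta cells, or ATTA, the same letters on the other strand.
Iapp, chr6:142298175-142298424, plus strand: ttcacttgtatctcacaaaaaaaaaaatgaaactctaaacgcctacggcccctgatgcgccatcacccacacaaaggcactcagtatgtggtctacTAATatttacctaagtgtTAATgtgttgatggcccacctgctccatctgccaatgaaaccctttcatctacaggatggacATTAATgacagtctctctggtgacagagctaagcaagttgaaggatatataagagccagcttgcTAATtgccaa
Ucn3, chr13:3945350-3945599, minus strand: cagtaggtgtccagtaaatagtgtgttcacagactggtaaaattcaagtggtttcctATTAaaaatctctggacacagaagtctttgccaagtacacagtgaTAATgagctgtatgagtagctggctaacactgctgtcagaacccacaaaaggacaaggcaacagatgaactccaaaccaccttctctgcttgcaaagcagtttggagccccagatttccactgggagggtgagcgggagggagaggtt
Slc2a2, chr3:28697653-28697902, plus strand: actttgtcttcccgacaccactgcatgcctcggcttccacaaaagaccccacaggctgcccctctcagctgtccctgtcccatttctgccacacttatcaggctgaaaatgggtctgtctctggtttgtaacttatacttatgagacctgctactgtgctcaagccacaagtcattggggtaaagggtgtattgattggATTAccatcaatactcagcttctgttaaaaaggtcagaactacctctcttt
The Iapp window held 5 TAAT matches over both strands, some of which overlap, the Ucn3 window 2 and the Slc2a2 window 1. CANNTG, the E-box read by basic helix-loop-helix factors and the same on both strands, matched 3, 2 and 1 times in these windows (not in capitals). Of 32851 promoter windows of this length, 54.9% held TAAT and 66.2% held CANNTG, so such matches are common, and they are a description of the letters only. The windows of G6pc2 (2 annotated starts) and Glp1r held 1, 3 and 0 TAAT matches. Abcc8 and Kcnj11 are neighbouring genes on chromosome 7, with no other coding gene annotated between them.

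All values below are the authors' background-corrected and quantile-normalized log2 intensities, on which a difference of 1 is 2-fold. Levels belong to a probe, so they are compared between arrays and never between genes. Differences were tested with limma over all 16774 probes detected on at least 2 arrays, with antibody and diameter class as additive factors, and called at a Benjamini-Hochberg adjusted p under 0.05.

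**Figure D1:**
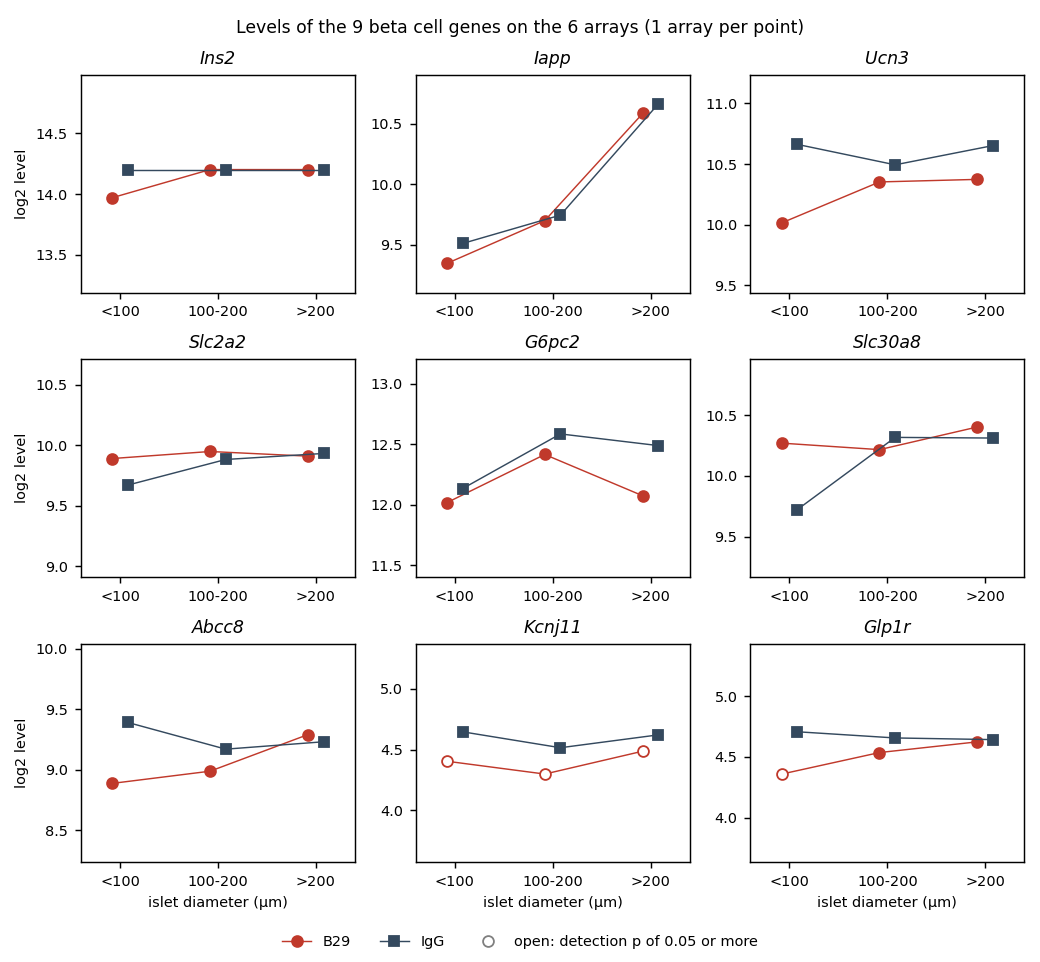
Log2 level of each of the 9 genes (y axis, 1 panel per gene, each spanning the same range) by islet diameter (x axis, µm), with circles for the 3 B29 arrays, squares for the 3 IgG arrays and open symbols where the probe was not detected. Iapp climbs with diameter for both antibodies, Ucn3 with B29 lies below IgG in every class, and Ins2 sits at the top of the scale.

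Iapp was the member that followed islet size. On the B29 arrays its level was 9.35 under 100 µm, 9.70 at 100 to 200 µm and 10.58 over 200 µm, and on the IgG arrays it was 9.51, 9.75 and 10.66. Both arrays of the large islets therefore stood above all other arrays. In RNA of whole islets a different number of beta cells and a different amount of RNA per beta cell cannot be told apart. The difference of over 200 from under 100 µm was 1.24 with B29 and 1.15 with IgG, and the fitted mean was 1.19 (SE 0.16), a 2.29-fold rise (means 10.62 and 9.43, 2 arrays each, limma adjusted p = 0.0185). It was the 5th highest difference among 16774 probes. Before normalization its intensity was 1321 over 200 µm against 653 under 100 µm with B29, and 1833 against 682 with IgG. Most of the step lay at the upper end: over 200 against 100 to 200 µm the difference was 0.90 (SE 0.16, limma adjusted p = 0.985, rank 2 among all probes), and 100 to 200 against under 100 µm it was 0.29 (SE 0.16, limma adjusted p = 0.889). The call of large against small islets was lost without the B29 array under 100 µm (difference 1.14, limma adjusted p = 0.603) and without the IgG array under 100 µm (1.25, limma adjusted p = 0.238). It was also lost with other background corrections, median centring or no filter on dim probes, while the difference stayed at or above 1.13 in each of these.

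None of the other 8 members passed in this comparison. Of the 9 genes, 1 rose and 0 fell between islets under 100 and over 200 µm, where 0.0954% of all probes passed as higher and 0.435% as lower, 0.531% in all. All 9 fitted differences were above 0, but without Iapp they ran from 0.03 for Kcnj11, which was not detected on the B29 arrays, to 0.36 for Slc30a8 with a median of 0.13, against 0.02 over all probes (limma adjusted p from 0.584 to 0.977). On the brightest probe, both large-islet arrays lay above both small-islet arrays for 3 of the 9 genes, Iapp, Slc2a2 and Slc30a8, and below them for 0 of 9. Over all probes these shares were 21.7% and 17.6%. The probes of Slc2a2 and Slc30a8 disagreed. On 1 other Slc2a2 probe large minus small was 0.37 with B29 and -0.30 with IgG, and on 1 other Slc30a8 probe 0.41 and -0.40. The remaining tested probe of each gene rose with both antibodies. The sign for the other members rested on the scale: when each array was centred on the pan-endocrine genes described below, all 8 differences were below 0, from -0.39 to -0.06, and Iapp stayed called at 0.77 (limma adjusted p = 0.0409). That centring moved the median of all probes by more than 0.1, to -0.40. It also called many times more probes than the 89 called on the authors' values, so a call there sets a gene less apart.

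**Figure D2:**
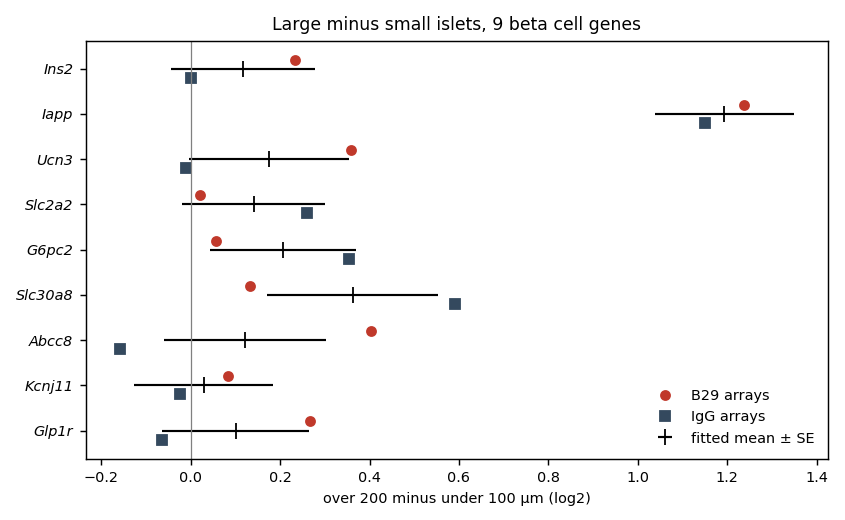
Log2 difference of islets over 200 µm from those under 100 µm (x axis) for each of the 9 genes (rows), with the B29 pair as a circle, the IgG pair as a square, and the fitted mean with its SE as a tick and a bar. Iapp stands at 1.24 and 1.15, and no other gene exceeds 0.36 in the fitted mean.

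Between medium and small islets 0 of the 9 genes passed, with 0.0835% of all probes called and 5.96% at an unadjusted p under 0.05, a level that 1 of the 9 reached. That gene was G6pc2, which encodes the islet-specific glucose-6-phosphatase. Its level on the B29 arrays was 12.02, 12.41 and 12.07 in order of rising diameter, and on the IgG arrays 12.13, 12.58 and 12.49. On this probe the medium class was the brightest with either antibody, by 0.42 over the small class in the fit (SE 0.16, limma adjusted p = 0.754). With cyclic loess it stood at 12.12, 12.16 and 11.98 with B29 and 12.39, 12.35 and 12.12 with IgG. The second G6pc2 probe had a difference of 0.05 in the same comparison. Its levels were 9.535, 9.343 and 9.355 with B29 and 9.329, 9.618 and 9.830 with IgG, so its medium class was brightest with neither antibody. Between large and medium islets 0 of 9 passed and 0% of all probes did, with 1 of 9 genes (Iapp) and 4.83% of all probes at an unadjusted p under 0.05.

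The antibody comparison asked whether the beta cell programme differed after B29. With B29 against IgG over the 3 classes, 0 of the 9 genes passed in either direction (limma adjusted p from 0.966 to 0.983). In that fit 0.00596% of all probes were called, and 4.67% had an unadjusted p under 0.05, as did 1 of the 9 genes, Ucn3. The median difference of the 9 genes was -0.16, against -0.00 over all probes, and 7 of the 9 were below 0. Of the 9 genes, 5 were lower with B29 in each of the 3 classes, namely Iapp, Ucn3, G6pc2, Kcnj11 and Glp1r, a pattern that 13% of all probes showed. For 3 of these, Ucn3, Kcnj11 and Glp1r, all B29 arrays lay below all IgG arrays, as they did for 4.88% of all probes. All B29 arrays lay above all IgG arrays for 0 of 9 genes and 4.23% of all probes. Kcnj11 was detected on the IgG arrays alone and passed the filter on dim probes through them, so the filter favoured its place in both counts. Without it they are 4 and 2 genes. The counts rest on the scale too. With median centring, medium-islet Iapp was 9.89 with B29 and 9.82 with IgG, and Ucn3 was 10.56 and 10.55. Centred on the pan-endocrine genes, B29 in small islets lay above IgG in medium islets for Kcnj11 (4.69 and 4.38) and Glp1r (4.64 and 4.53). These patterns carry no test of their own.

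Ucn3 had the largest fitted difference of the 9 genes. Urocortin 3 is a late marker of beta cell maturity in the mouse. Its level was 10.01, 10.35 and 10.37 with B29 and 10.66, 10.49 and 10.65 with IgG, in order of rising diameter. The B29 and IgG values did not overlap, and the gap was largest in small islets, where the difference was -0.65, or 1.57-fold, against -0.14 and -0.28 in the medium and large classes. The fitted mean was -0.36 (SE 0.15, limma adjusted p = 0.966). Its size depended on the small islets: without that pair of arrays the fitted difference was -0.21, and without the medium pair -0.46. The lack of overlap rested on the scale. Before normalization the intensity in medium islets was 1595 with B29 and 1564 with IgG. With median centring the level there was 10.56 and 10.55, so in neither case was B29 lower in that class.

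For the other hormone genes the antibodies lay closer. The fitted difference of Iapp was -0.10 (SE 0.13), far less than its span of 1.32 over the diameter classes. Ins2 encodes insulin 2, and its probe had a level of 13.97, 14.20 and 14.20 with B29 and 14.20 on each IgG array. That 14.20 is the ceiling that quantile normalization gives to the brightest probe, so on 5 arrays the value says only that Ins2 ranked first. On the B29 array of small islets it ranked second, behind the acinar elastase gene Cela2a, although its raw intensity there, 19040, was not the lowest: raw Ins2 ran from 16818 to 19047 with B29 and from 18371 to 19265 with IgG. The fitted difference of -0.08 (SE 0.13) therefore carries 1 change of rank, and with median centring, which sets no ceiling, Ins2 stood at 14.24, 14.19 and 14.04 with B29 and 14.20, 14.22 and 14.13 with IgG.

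**Figure D3:**
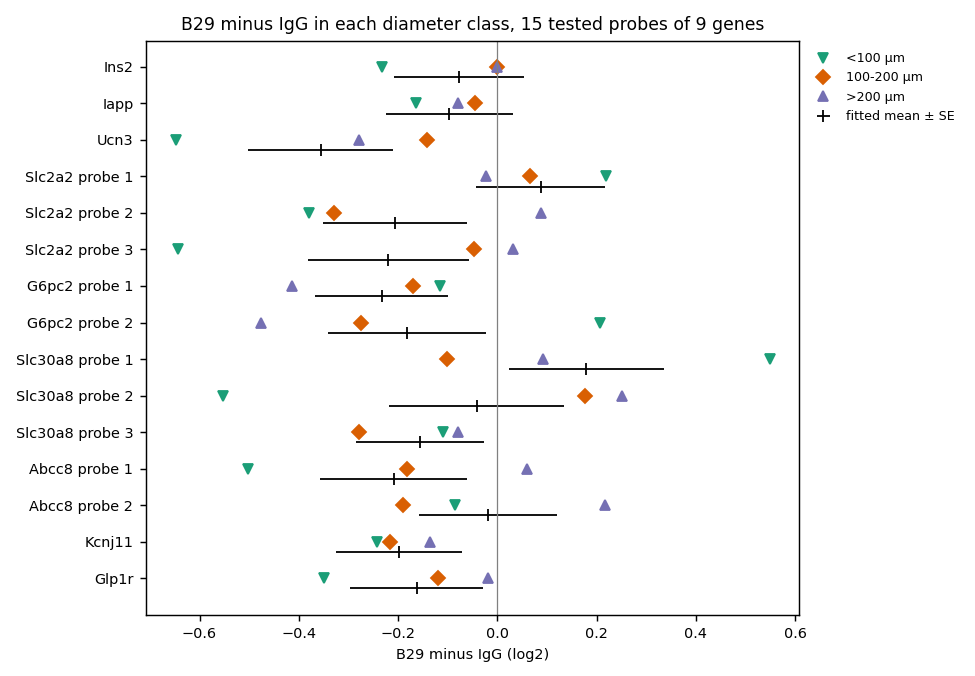
Log2 difference of B29 from IgG (x axis) for each of the 15 tested probes of the 9 genes (rows, probes of a gene numbered from the brightest), with 1 symbol per diameter class and the fitted mean with its SE as a tick and a bar. The green symbols of the small islets spread widest, from -0.65 for Ucn3 to 0.55 for the first Slc30a8 probe.

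The genes of glucose uptake and zinc loading had probes that disagreed. Slc2a2 stood at 9.89, 9.95 and 9.91 with B29 and 9.67, 9.88 and 9.93 with IgG on its brightest probe, a difference of 0.22 in small islets, where its other detected probes gave -0.38 and -0.64. Slc30a8 stood at 10.27, 10.22 and 10.40 with B29 and 9.72, 10.32 and 10.31 with IgG. Its difference in small islets was 0.55 on that probe and -0.55 and -0.11 on the others, so no direction can be given for either gene there. Fitted over the classes, the brightest probes differed by 0.09 (SE 0.13) for Slc2a2 and 0.18 (SE 0.16) for Slc30a8. Over the 4 genes with several tested probes and the 3 classes, the probes of a gene shared a sign in 5 of 12 cases. For G6pc2 the fitted difference was -0.23 (SE 0.13) and its second probe gave -0.18 (SE 0.16). That pair disagreed in small islets, at -0.12 and 0.21, and agreed in sign in the medium (-0.17 and -0.28) and large (-0.41 and -0.48) classes.

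The channel and incretin receptor genes followed. Abcc8, the regulatory subunit of the ATP-sensitive potassium channel, had levels of 8.89, 8.99 and 9.29 with B29 and 9.39, 9.17 and 9.23 with IgG, so B29 was lower in small and medium islets and slightly higher in large ones. The fitted difference was -0.21 (SE 0.15). The second probe differed by -0.08 in small islets, against -0.50 on the first.

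Kcnj11, the pore subunit, was read close to background: 4.40, 4.30 and 4.49 with B29 and 4.65, 4.51 and 4.62 with IgG. It was detected on 3 of 3 IgG arrays and on 0 of 3 B29 arrays, where its detection p-values were 0.0726, 0.151 and 0.0588. The fitted difference of the measured values was -0.20 (SE 0.13, limma adjusted p = 0.970). On the authors' scale, setting each B29 value at the higher of its own level and the array's detection floor put Kcnj11 at least 1.07-fold lower. That bound was not tested and holds for that scale only. Over the alternative settings the fitted difference ran from -0.23 to -0.07. Since the probe entered the test through its IgG detections, the filter favoured a lower B29 value. Glp1r stood at 4.36, 4.54 and 4.62 with B29 and 4.71, 4.66 and 4.64 with IgG. On this scale the antibodies did not overlap, as for 4.88% of all probes. Before normalization they did: the intensity was 82.8 with B29 in medium islets and 80.8 with IgG in small islets. Its probe was not detected on the B29 array of small islets, where the array's detection p-value for it was 0.100. On the authors' scale the detection floor put Glp1r there at least 1.18-fold lower. That bound holds for that scale only: without background correction the levels there were 6.27 with B29 and 6.38 with IgG, a smaller gap. Its fitted difference was -0.16 (SE 0.13). Both probes lie near the detection floor.

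Within a class there was 1 array against 1 and no test. No member differed by 2-fold in any class. Probes at least 2-fold higher or lower with B29 made up 0.37% and 0.194% in small islets, 0.517% and 0.0588% in medium islets and 0.193% and 0.708% in large islets. The median difference of the 9 genes was -0.23 in small, -0.12 in medium and -0.02 in large islets, and over all probes it was -0.00, -0.01 and 0.01. Whether the antibody difference changed with diameter was tested as a linear trend over the classes: 0 of the 9 genes and 0% of all probes passed, with 0 of 9 genes and 6.86% of all probes at an unadjusted p under 0.05. The steepest slopes per class were 0.28 for Abcc8 (SE 0.16, limma adjusted p = 0.790) and -0.23 for Slc30a8 (SE 0.17, limma adjusted p = 0.842), and the other Slc30a8 probes had slopes of 0.40 and 0.01.

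The pathway around these genes was read from lists. In the antibody comparison 0 genes passed in each of them. Glucose metabolism and coupling factors had 14 tested of 20 listed, with a median difference of -0.08 and the largest for fumarate hydratase, Fh1 (0.47, SE 0.14, limma adjusted p = 0.966), and for the mitochondrial dehydrogenase gene Idh2 (-0.33). Fh1 was higher with B29 in each class, at 8.49, 8.64 and 8.67 with B29 and 8.22, 8.06 and 8.09 with IgG. Excitability and calcium entry had 12 tested, with a median of -0.10, and the calcium channel subunit gene Cacnb2 at -0.32. Incretin and G protein signalling had 14 tested, with a median of 0.08, and the muscarinic receptor gene Chrm3 at -0.48 (SE 0.14, limma adjusted p = 0.966). Relatives of the members, such as the transporter gene Slc2a1 (-0.24), had 11 tested and a median of 0.02. Receptors and ligands of the members' products had 5 tested and a median of 0.06. The urocortin receptor gene Crhr2 and the insulin receptor gene Insr did not pass the filter. Genes kept low in beta cells had 11 tested and a median of 0.02, with the aminotransferase gene Oat at 0.36.

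In large against small islets 0 genes of these 6 lists passed either. The insulin relative Igf1, a growth factor, came closest: 4.48 and 4.70 over 200 µm (B29 and IgG) against 5.53 and 5.48 under 100 µm, a difference of -0.92 (SE 0.16, limma adjusted p = 0.0571). The B29 value over 200 µm was not detected. Of the incretin receptor genes, Gipr had a difference of 0.46 (SE 0.17, limma adjusted p = 0.400). In the excitability list the potassium channel gene Kcnh6 had the highest difference, 0.61. That size is not exact, since Kcnh6 was not detected on the IgG array under 100 µm. The cation channel gene Trpm5 stood at 0.57. The transcription regulator Lmo4, of the genes kept low in beta cells, stood at -0.81. The medians of the 6 lists were -0.02 for glucose metabolism, 0.10 for excitability, -0.04 for incretin signalling, -0.14 for relatives, 0.25 for receptors and ligands and -0.10 for genes kept low, against 0.02 over all probes.

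**Figure D4:**
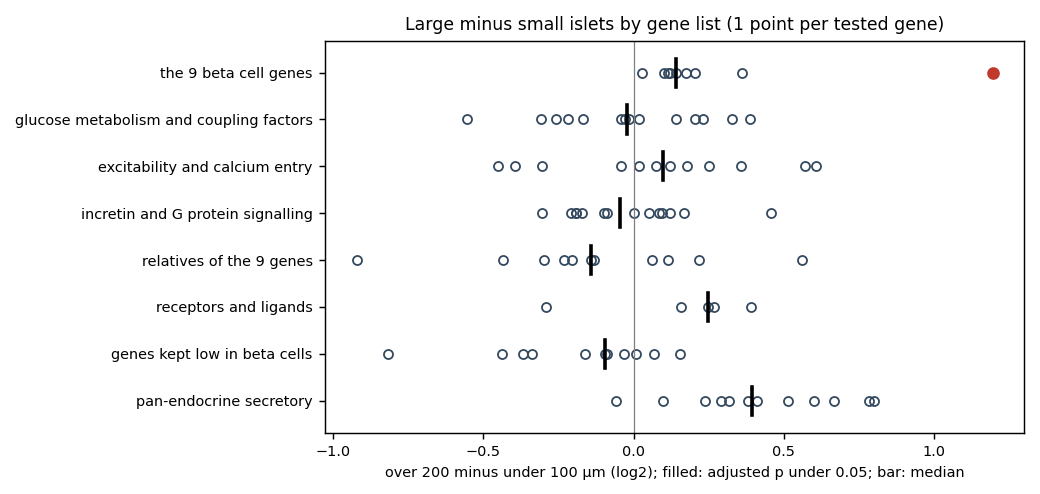
Log2 difference of islets over 200 µm from those under 100 µm (x axis) for the tested genes of the 9 members and of 7 lists (rows), 1 circle per gene, filled where limma's adjusted p was under 0.05, with a bar at each list's median. Iapp at 1.19 is the single filled point, and the pan-endocrine list has the highest median, 0.39.

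Markers of other cells moved with diameter too. Of the 21 acinar genes, 21, 21 and 18 were detected on the B29 arrays and 21, 20 and 20 on the IgG arrays in order of rising diameter. Their summed raw intensity was 220883, 75059 and 7038 with B29 and 163965, 57714 and 46329 with IgG, so it was highest in small islets with either antibody. Of these genes, 12 fell in large against small islets (median -4.21), and of 3 tested duct genes 1 did, Muc1 (-1.90, limma adjusted p = 0.0144). The pan-endocrine secretory list, of secretory genes that the endocrine cells of islets share, had a median of 0.39, with 11 of 12 genes above 0 and 0 called. Its highest were the prohormone-processing gene Cpe (0.80, limma adjusted p = 0.0965) and the chromogranin gene Chga (0.78, limma adjusted p = 0.111). The medians of the remaining lists were 0.09 for alpha cells (2 tested), 0.58 for delta and PP cells (5), 0.13 for endothelial cells (8), 0.04 for macrophages (8) and 0.41 for fibroblasts and stellate cells (7), with 0 called in each.

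With B29 against IgG these cell type lists had 0 calls. Their medians were -0.79 for acinar, 0.10 for duct, 0.03 for pan-endocrine, -0.10 for alpha, -0.10 for delta and PP, -0.02 for endothelial, 0.14 for macrophage and 0.12 for fibroblast and stellate cell genes. Within classes the acinar median was 0.23 in small, 0.46 in medium and -3.07 in large islets. The part of other cells' RNA in the members' differences was not tested.

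The Iapp level could be set beside the acinar level array by array. On the small-islet arrays the acinar median was 13.07 with B29 and 12.76 with IgG, and Iapp stood at 9.35 and 9.51. On the medium-islet arrays the acinar median was 11.41 with B29 and 10.87 with IgG, and Iapp stood at 9.70 and 9.75. On the large-islet arrays the acinar median was 6.76 with B29 and 10.24 with IgG, and Iapp stood at 10.58 and 10.66. Iapp was thus lower where the acinar level was higher, apart from the order of the large-islet pair. The acinar level fell with rising diameter for both antibodies, so a relation of Iapp to it cannot be told apart from one to diameter. Relative to each gene's own mean over the arrays, Iapp ran from -0.58 to 0.74, and the median of the other 8 genes from -0.21 to 0.09.

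**Figure D5:**
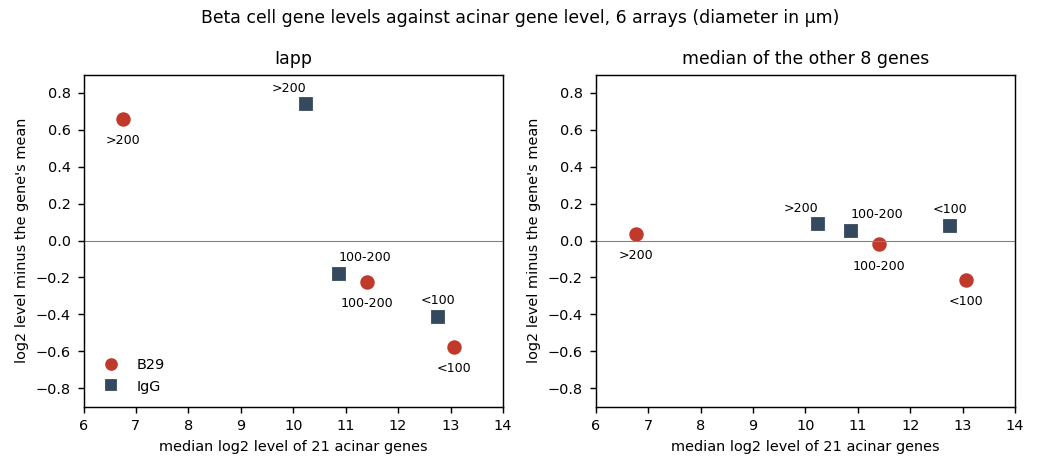
Log2 level minus the gene's mean over 6 arrays (y axis) for Iapp (left) and for the median of the other 8 genes (right) against the median log2 level of 21 acinar genes (x axis), with circles for B29 arrays, squares for IgG arrays and labels for diameter in µm. Iapp lies at 0.66 and 0.74 on the large-islet arrays, whose acinar medians are 6.76 and 10.24, and falls to -0.58 and -0.41 on the small-islet arrays, whose acinar medians are 13.07 and 12.76.

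Iapp was the one member whose levels spanned at least 1 log2 unit, and genes with a like pattern were sought among 708 probes that were detected on all 6 arrays with as wide a span. The closest by Pearson correlation over the 6 arrays were 1200015P04Rik (0.96), the transcriptional corepressor gene Nab2 (0.96) and the metalloproteinase gene Pappa2 (0.94). Nab2 stood at 7.10, 7.36 and 8.24 with B29 and 6.98, 7.41 and 7.99 with IgG in order of rising diameter. The arrays share their normalization and their diameter classes, so these values describe 6 points and carry no test.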

How the data were processed

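Total RNA of sorted islets was amplified, labelled with biotin and hybridised to Illumina bead arrays, per the labels' protocols. The deposited raw table gives an intensity and a detection p-value for each probe and array. The authors' value table holds log2 values, and the submitters' processing notes name limma 3.34.9. These log2 values were matched within 0.00037 by applying neqc (background from the detection p-values, offset 16, quantile normalization) to the deposited intensity values, which gives their scale and centring. Probes were named through the platform's probe table and RefSeq GRCm38.p6: 35784 had 1 symbol and 9497 none.

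Probes with a detection p under 0.05 on at least 2 arrays, 16774 in all, were fitted with limma 3.58.1 in R 4.3.3 (lmFit and eBayes, antibody and diameter class as additive factors, 2 residual degrees of freedom). eBayes added 6.60 prior degrees of freedom, estimated over all tested probes. The trend over classes came from a fit with class rank, antibody and their product. Adjustment for multiple testing followed Benjamini and Hochberg, with a threshold of 0.05. Within a class no test was made. The fits were also run on simulated data with independent noise and planted changes. Those data held no effects shared by the probes of an array, so they say nothing about such effects here. Alternatives were other scalings, background corrections, filters and eBayes settings, 1 probe per gene, a fit without the other factor, and omission of single arrays or pairs.

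All 9 genes are named. Of each list up to 4 genes with the largest difference were eligible for naming, called ones first, and Insr and Crhr2 were added as receptors that did not pass the filter. The members and lists were chosen with earlier results of these data known. Promoters came from the RefSeq table.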

Additional observations from a re-analysis of the deposited data

Results flagged for a closer look

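On the brightest probe of 3 genes the B29 minus IgG difference pointed opposite ways in different diameter classes, each class being 1 pair of arrays. For Slc2a2 it was 0.219 under 100 µm and -0.0223 over 200 µm. For Slc30a8 it was 0.548 under 100 µm and -0.101 at 100 to 200 µm. For Abcc8 it was -0.503 under 100 µm and 0.0591 over 200 µm. The other probes of Slc2a2 (-0.38 and -0.64) and Slc30a8 (-0.55 and -0.11) had the opposite sign under 100 µm, so no direction can be given for these genes there. These pairwise differences between classes were not tested. The linear trend over classes had limma adjusted p-values of 0.916 for Slc2a2, 0.842 for Slc30a8 and 0.790 for Abcc8.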

How the results depend on the processing

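The diameter class that each B29 and IgG array share is a factor of the fit, so the antibody comparison is paired by class. The labels give no replicate numbers by which arrays could be paired in another way. Over the alternatives tried, the antibody comparison, the trend and both comparisons with the medium class kept 0 called members. In large against small islets 1 member, Iapp, was called with neqc, cyclic loess, pan-endocrine centring, probes detected on all 6 arrays, 1 probe per gene, trended and robust eBayes and the antibody left out of the fit. The count was 0 with median centring (difference 1.26, limma adjusted p = 0.0936), without background correction (1.13, 0.197), with normexp and an offset of 50 (1.15, 0.172) and without a filter (1.19, 0.333). With each array left out the count ran from 0 to 1, the Iapp difference from 1.14 to 1.25 and its limma adjusted p from 0.0109 to 0.603. The cause of these losses was not tested. The calls over all probes moved as well, from 89 to 85 with cyclic loess, 5 with median centring, 1562 with pan-endocrine centring, 57 for probes detected on all 6 arrays, and 0 without background correction, with normexp or without a filter. For medium against small islets 14 calls became 71 with pan-endocrine centring, 61 with trended and robust eBayes, 31 without the antibody factor, 5 with 1 probe per gene, 1 for probes detected on all 6 arrays and 0 with median centring, without background correction, with normexp or without a filter. The single antibody call was lost with those 4 settings, with cyclic loess, with 1 probe per gene and without the class factor. The trend had 51 calls with pan-endocrine centring.

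Differences that changed sign had not passed the test in any setting. For B29 against IgG, Ins2 was 0.051 with cyclic loess, and Slc30a8 ran from -0.0048 to 0.32 with a pair of arrays left out. For large against small islets, cyclic loess gave -0.11 for Ins2 and -0.20 for G6pc2, median centring -0.13 and -0.17 for those genes, and pan-endocrine centring -0.30 for Ins2, -0.24 for Ucn3, -0.28 for Slc2a2, -0.21 for G6pc2, -0.058 for Slc30a8, -0.30 for Abcc8, -0.39 for Kcnj11 and -0.32 for Glp1r. With an array left out the range was -0.044 to 0.39 for Ucn3, -0.10 to 0.34 for Abcc8, -0.019 to 0.076 for Kcnj11 and -0.039 to 0.24 for Glp1r. For medium against small islets, cyclic loess gave -0.19 for Ins2 and -0.0020 for G6pc2, median centring -0.011 for Ins2 and 0.22 for Abcc8, and pan-endocrine centring -0.22 for Ins2, -0.039 for Iapp, -0.25 for Ucn3, -0.20 for Slc2a2, -0.061 for Slc30a8 and -0.27 for Glp1r. With an array left out the range was -0.13 to 0.30 for Ucn3, -0.0056 to 0.55 for Slc30a8, -0.28 to 0.16 for Abcc8 and -0.077 to 0.20 for Glp1r. For large against medium islets, cyclic loess gave -0.0083 for Slc2a2, median centring -0.13 for Ucn3, -0.19 for Slc2a2 and -0.079 for Slc30a8, and pan-endocrine centring -0.082 for Slc2a2 and -0.050 for Glp1r. With an array left out the range was -0.071 to 0.25 for Ucn3, -0.077 to 0.088 for Slc2a2, -0.12 to 0.30 for Slc30a8, -0.019 to 0.38 for Abcc8 and -0.071 to 0.15 for Glp1r. Pan-endocrine centring set the median of all probes to -0.40 for large and -0.32 for medium against small islets, and median centring set it to 0.19 for medium against small islets. Signal over background limits Kcnj11 and Glp1r, and the ceiling of the scale limits Ins2.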
